A study of Mus musculus with 36 samples.

Results

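The liver transcripts described here belong to 33 genes that make, store, take up or export cholesterol, chosen by name: 19 enzymes of cholesterol synthesis, 5 genes that control the transcription factor SREBP2 or carry sterol inside the cell, 2 cholesterol-esterifying enzymes, and 7 genes of the sterol-sensing receptors LXR and of cholesterol export or uptake. All 33 were found among the 34829 genes of the deposited table, and 28 of them had a mean signal of at least 5 and were tested together with all 8702 such genes. The other 5, Mvd, Scap, Soat1, Abcg1 and Mylip, lay below that level and are given by their range only. The rule names the genes by their function and sets no threshold on measured values, but it was written with earlier results of these data known.

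The samples are livers of C57BL6/J mice, a standard inbred strain, kept at 22 °C (ordinary room temperature) or at 30 °C (thermoneutrality, where mice spend little energy on body heat). They were taken at 0, 4, 12 or 24 h after injection of lipopolysaccharide (LPS), the bacterial endotoxin, which inflames the whole body. At 22 °C there were 4, 4, 5 and 5 samples at these times, and at 30 °C there were 5, 4, 4 and 5. The design asks how the liver's response to LPS differs between the temperatures. No source used here gives age, sex or LPS dose. The labels do not say whether each sample is a different mouse, so the p-values rest on the spread among samples, which may be technical. No group without LPS is labelled at 4, 12 or 24 h, so that LPS, time of day, the injection itself and feeding cannot be told apart in a change since 0 h.

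Cells build cholesterol from acetyl-CoA through mevalonate, farnesyl diphosphate and squalene, and then reshape the sterol ring. The transcription factor SREBP2 (gene Srebf2) turns on nearly every enzyme of this route. It is held in the endoplasmic reticulum by the Insig proteins when sterols are plentiful and is cut and released when they are scarce. The nuclear receptors LXR alpha and LXR beta (Nr1h3, Nr1h2) sense oxidised sterols and turn on exporters such as Abca1, which loads cholesterol onto high-density lipoprotein, and Abcg5 with Abcg8, which pump it into bile. The liver is the main organ of both synthesis and disposal.

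The promoters of 4 enzymes that the results turn on and of Insig1 are shown because each of these genes was higher at thermoneutrality than at room temperature at 24 h. Their changes since before LPS were not alike. At thermoneutrality Insig1 had fallen by 24 h, whereas Msmo1, Cyp51 and Idi1 had risen. Each is the stretch of 200 bases that ends just before the RefSeq gene start (RefSeq, GRCm38.p6), printed 5′ to 3′ on the gene's own strand. Capitals mark CCAAT on either strand (read as ATTGG on the other), the box bound by the factor NF-Y, and the sterol regulatory element in its forms TCACNCCAC and CACNCCAC, on either strand, where the shorter form lies inside the longer. The Hmgcs1 stretch is chr13:119690151-119690350 (+ strand), that of Msmo1 is chr8:64733579-64733778 (- strand), that of Cyp51 is chr5:4104698-4104897 (- strand), that of Idi1 is chr13:8885406-8885605 (+ strand) and that of Insig1 is chr5:28071212-28071411 (+ strand).
Hmgcs1: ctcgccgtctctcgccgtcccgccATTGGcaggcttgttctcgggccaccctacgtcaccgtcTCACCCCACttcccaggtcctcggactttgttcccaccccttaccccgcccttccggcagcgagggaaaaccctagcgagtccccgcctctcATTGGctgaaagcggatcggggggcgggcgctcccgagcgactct
Msmo1: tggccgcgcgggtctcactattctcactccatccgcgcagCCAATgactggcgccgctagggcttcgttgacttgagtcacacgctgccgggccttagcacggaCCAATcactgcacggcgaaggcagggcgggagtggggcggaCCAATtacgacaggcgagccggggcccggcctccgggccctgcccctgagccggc
Cyp51: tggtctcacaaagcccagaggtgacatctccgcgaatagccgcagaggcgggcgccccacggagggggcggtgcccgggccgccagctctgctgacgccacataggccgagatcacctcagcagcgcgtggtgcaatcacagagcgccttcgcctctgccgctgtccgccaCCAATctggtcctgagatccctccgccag
Idi1: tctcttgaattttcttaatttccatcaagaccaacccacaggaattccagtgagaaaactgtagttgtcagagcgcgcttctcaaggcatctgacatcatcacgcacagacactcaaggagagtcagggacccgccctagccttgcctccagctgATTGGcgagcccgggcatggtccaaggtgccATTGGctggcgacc
Insig1: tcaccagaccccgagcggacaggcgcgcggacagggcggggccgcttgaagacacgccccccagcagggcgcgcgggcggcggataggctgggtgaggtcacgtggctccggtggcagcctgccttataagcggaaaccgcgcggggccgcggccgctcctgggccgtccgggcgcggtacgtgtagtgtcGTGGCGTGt

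In these stretches Hmgcs1 holds TCACCCCAC from 137 to 129 bases before its start, and Insig1 holds the shorter form on the other strand, 9 to 2 bases before its start. Promoter windows of 300 bases (250 before to 50 after the start) were matched for 27 of the 33 genes. Fdps, Fdft1, Sqle, Stard4, Soat2 and Abcg1 were not matched. CCAAT occurred in the windows of 15 of 16 matched synthesis enzymes and of 22 of the 27 genes, against 41.1% of the windows of all 27025 genes. TCACNCCAC occurred in 1 of the 27 (Hmgcs1), against 1.44% of all genes, and CACNCCAC in 3 (Acat2, Hmgcs1 and Insig1), against 7.12%. The classic 10-letter sterol regulatory element (TCACNCCAC with N as C and an A before it; 0.0999% of all genes), the LXR direct repeat (AGGTCA, 4 free bases, AGGTCA; 0.0148%) and its form AGGTTA, 4 free bases, CGGTCA (0.0037%) were found in none of the 27, which says only that these letters are not in these windows. Abcg5 and Abcg8 lie head to head on chromosome 17, with annotated starts 110 bases apart and a further Abcg8 start 6709 bases from that of Abcg5.

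The libraries were made from the 3′ ends of transcripts and held 557000 to 2744000 estimated reads each. The estimate takes the commonest step of the values in a library as 1 read. By it 3 reads, taken here as a floor, equal a signal of about 1.33 to 5.05 depending on the library. Only 16.8% to 19.6% of the values above 0 lay within 0.01 of a whole number of steps. Some lay below 1 step, such as Soat1 at 0.0768 in 22 °C 4 h replicate 2, where the step was 0.858. Read numbers and floors are therefore rough. A signal is the deposited value named scaled reads per base. It is compared between samples for a gene, although its scaling between libraries is not given, and levels of different genes are not set against each other. The sum of signal in 30 °C 4 h replicate 4 was 1717980, against 828054 to 1362720 in the other libraries, and that library therefore stands apart. At 0 h the sums ran from 1013500 to 1086390 at 22 °C and from 902390 to 956735 at 30 °C. At 12 h they ran from 1025510 to 1131970 and from 828054 to 917457. The sums of the temperatures thus did not overlap at these times. The median log2 difference over all genes between temperatures was 0.01 at 0 h and -0.01 at 12 h. The 8 hepatocyte markers looked up were present in all groups, as the tissue label requires. Their summed signal was lower at 24 h than before LPS, going from a median of 27418 at 22 °C and 31912 at 30 °C before LPS to 15956 and 15773 at 24 h. The markers did not fall as a block. By 24 h at 22 °C 1 of the 8 was higher and 4 were lower (all genes: 19% and 18%). At 30 °C 3 were higher and 3 lower (15.3% and 14.4%). In whole liver, fewer cells of a type and less RNA per cell cannot be told apart.

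Before LPS, 4 of the 18 tested synthesis enzymes (Msmo1, Idi1, Sqle and Cyp51) were lower at 30 °C than at 22 °C and none was higher (all genes tested: 0.414% lower). By 24 h after LPS 14 of the 18 had fallen at 22 °C (all genes: 18%), and at 30 °C 13 of the 18 rose between 12 and 24 h (all genes: 11.6%). At 24 h 14 of the 18 were higher at 30 °C than at 22 °C (all genes: 9.93%), and these included the 4 enzymes that were lower at 30 °C before LPS. Abca1, the exporter, was lower at 30 °C at 24 h, and Soat2, a storage enzyme, was higher at 30 °C before LPS. Differences below are log2 differences from limma across all 8702 genes, with the standard error, and the adjusted p is by Benjamini-Hochberg over those genes with a threshold of 0.05. A gene that reached it is said to have passed.

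**Figure D1:**
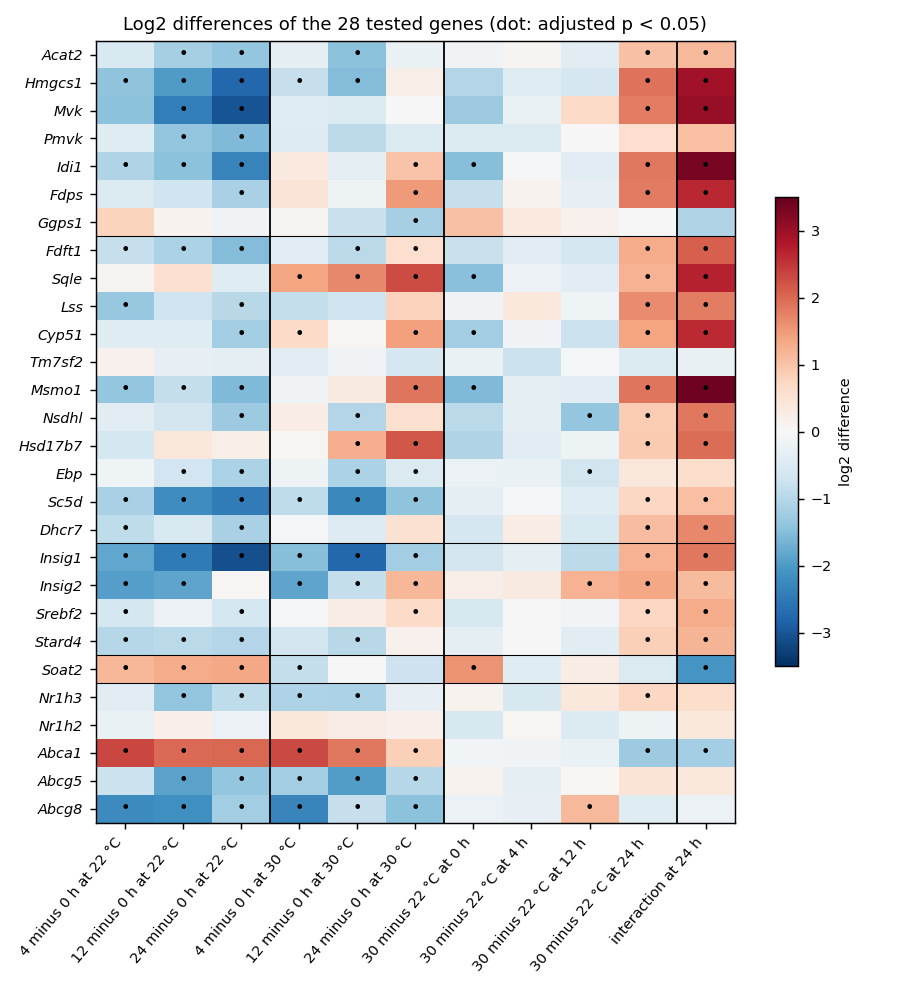
Log2 differences of the 28 tested genes (rows, grouped by role) in 11 comparisons (columns), red for higher and blue for lower in the first-named group, with a dot where the gene passed. Most synthesis enzymes are blue at 0 h and red at 24 h in the columns for 30 minus 22 °C, and blue in all 3 columns for the change at 22 °C.

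At 0 h, 4 of the 28 tested genes were lower and 1 was higher at 30 °C than at 22 °C, where 0.414% and 0.0919% of all genes tested were. The median difference of the 28 was -0.51, against 0.01 over all genes. The 5 genes were Msmo1, Idi1, Sqle and Cyp51 (lower) and Soat2 (higher), and the count fell to 2 without 22 °C replicate 3, to 3 without 22 °C replicate 4 or 30 °C replicate 2, and to 1 (Msmo1) when only the 0 h groups were fitted. At 24 h, 19 were higher and 1 was lower at 30 °C (all genes: 9.93% higher, 8.71% lower), with a median of 0.90 against -0.03. At 4 h none passed in limma (1 had an unadjusted p under 0.05; 0.207% of all genes passed), and at 12 h 2 were higher and 2 lower (0.977% and 3.29% of all genes). The 12 h count fell to 2 without 22 °C replicate 1 or 2 or 30 °C replicate 4, and both rescalings of the libraries left 2 higher and 1 lower.

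After LPS at 22 °C, 12 of the 28 genes fell and 2 rose by 4 h (13.6% and 15.8% of all genes), 15 fell and 2 rose by 12 h (20.6% and 20.7%), and 20 fell and 2 rose by 24 h (18% and 19%). At 30 °C, 8 fell and 3 rose by 4 h (14.6% and 17.8%), 12 fell and 3 rose by 12 h (18.9% and 19.3%), but only 6 had fallen and 10 had risen by 24 h (14.4% and 15.3%). These comparisons share the 0 h samples of their temperature. From 12 to 24 h, 18 rose and 1 fell at 30 °C (11.6% and 9.52%), whereas 2 rose and 3 fell at 22 °C (4.02% and 6.6%). That last count was 1 to 6 with single libraries left out, and 2 rose and 1 fell after upper-quartile rescaling, which also moved the 4 h calls at 30 °C to 2 that rose and 10 that fell. Left out in turn, single libraries moved the 4 h count at 22 °C to 9 (7 fell, 2 rose) without 22 °C 4 h replicate 2, which was the lowest of its group in 14 of the 18 tested enzymes, and to 11 at 30 °C (9 fell, 2 rose) without 30 °C 4 h replicate 4.

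The test of the difference itself, which subtracts the change at 22 °C from the change at 30 °C, passed for 20 of the 28 genes at 24 h, 18 higher and 2 lower (all genes: 5.07% higher, 3.88% lower; median 1.24 against -0.04). None passed at 4 h or 12 h, where 5 and 8 had an unadjusted p under 0.05 (0.0115% and 0.276% of all genes passed). The library 30 °C 24 h replicate 5 was the highest of its group in 15 of the 18 tested enzymes and held 2295000 estimated reads. Without it, 15 genes were higher and 1 lower at 24 h, and the difference of changes passed for 15 higher and 2 lower. The 24 h libraries held 710000 to 2295000 estimated reads at 30 °C, against 779000 to 931000 at 22 °C. The part of depth in the 24 h differences was not tested.

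The early pathway makes farnesyl diphosphate, the last common precursor of sterols, and geranylgeranyl diphosphate, a lipid anchor for proteins. Of its 7 tested genes, 5 were higher at 30 °C at 24 h (all genes: 9.93%) and 6 had fallen at 22 °C by then (all genes: 18%). Hmgcs1, the synthase that commits acetyl units to the pathway, had a signal of 952, 1153, 1370 and 1743 at 22 °C before LPS and 395, 622, 636, 742 and 786 at 30 °C. The groups do not overlap, but the difference did not pass (-1.04 ± 0.29, adjusted p = 0.11). At 24 h the Hmgcs1 signal was 124, 146, 169.8, 275 and 281 at 22 °C and 449.7, 550.4, 743, 785 and 1249 at 30 °C. Every sample at 30 °C then lay above every sample at 22 °C, a difference of 1.91 ± 0.28 (adjusted p = 5.3e-06) or 3.75-fold. At 22 °C Hmgcs1 had fallen by 2.75 ± 0.29 (adjusted p = 2.5e-09), while at 30 °C it fell by 1.53 ± 0.29 (adjusted p = 6.6e-05) up to 12 h and then rose by 1.72 ± 0.29 (adjusted p = 4.0e-05).

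Idi1, which isomerises isopentenyl diphosphate, had a signal of 79.6, 105, 112 and 127 at 22 °C before LPS and of 20.7, 36.1, 38.03, 47.9 and 48.3 at 30 °C. It was the early-pathway gene that passed at 0 h (-1.48 ± 0.32, adjusted p = 0.017), with no overlap, though it did not pass without 22 °C replicate 3 or 4 or 30 °C replicate 2 (adjusted p up to 0.078). At 24 h its signal was 9.62, 16.6, 17.2, 30.7 and 36.6 at 22 °C and 55.6, 61.7, 69.1, 84.8 and 108 at 30 °C. The order had turned, again without overlap (1.83 ± 0.31, adjusted p = 4.6e-05). Fdps, which makes farnesyl diphosphate, had a signal of 4.29, 6.73, 13.8, 15.4 and 23.3 at 22 °C and 31.1, 32.1, 37.7, 47.2 and 68.2 at 30 °C at 24 h. Its groups did not overlap (1.83 ± 0.33, adjusted p = 0.00011), and at 30 °C Fdps stood above its own 0 h level (1.50 ± 0.33, adjusted p = 0.00054), which was 7.96, 13.9, 16.3, 16.5 and 17.9.

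Acat2, the cytosolic thiolase that joins acetyl units, showed no difference that passed before LPS (-0.12 ± 0.23, adjusted p = 0.93). Its 24 h signal was 43.2, 49.3, 50.1, 50.5 and 59.3 at 22 °C and 75.96, 89.7, 97.8, 104 and 164 at 30 °C. The 24 h groups did not overlap (1.02 ± 0.22, adjusted p = 0.0011). Mevalonate kinase, Mvk, was weakly detected. At 24 h its signal was 0, 0.779, 2.13, 2.61 and 8.24 at 22 °C, mostly within the estimated level of a few reads, and 5.49, 8.43, 8.82, 9.35 and 13.2 at 30 °C. These groups overlap, and the difference (1.78 ± 0.61, adjusted p = 0.037) lost its call without 22 °C replicate 1, 2 or 3 or 30 °C replicate 1, 3, 4 or 5 (adjusted p up to 0.14). Pmvk, phosphomevalonate kinase, fell at 22 °C (-1.53 ± 0.39, adjusted p = 0.0020) and did not pass between temperatures at 24 h (0.58 ± 0.37, adjusted p = 0.30). Ggps1, which draws farnesyl diphosphate off towards geranylgeranyl diphosphate, had a 24 h difference of -0.02 ± 0.37, with a 95% interval of -0.74 to 0.71. It was weakly detected: its 24 h signal was 1.87 to 8.20 at 22 °C and 2.32 to 5.46 at 30 °C. In those groups 3 estimated reads equal a signal of up to about 4.06 and 4.35, so that this difference says little. Ggps1 also fell at 30 °C (-1.17 ± 0.37, adjusted p = 0.016), a call that ended without 30 °C 0 h replicate 3 (adjusted p = 0.063).

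**Figure D2:**
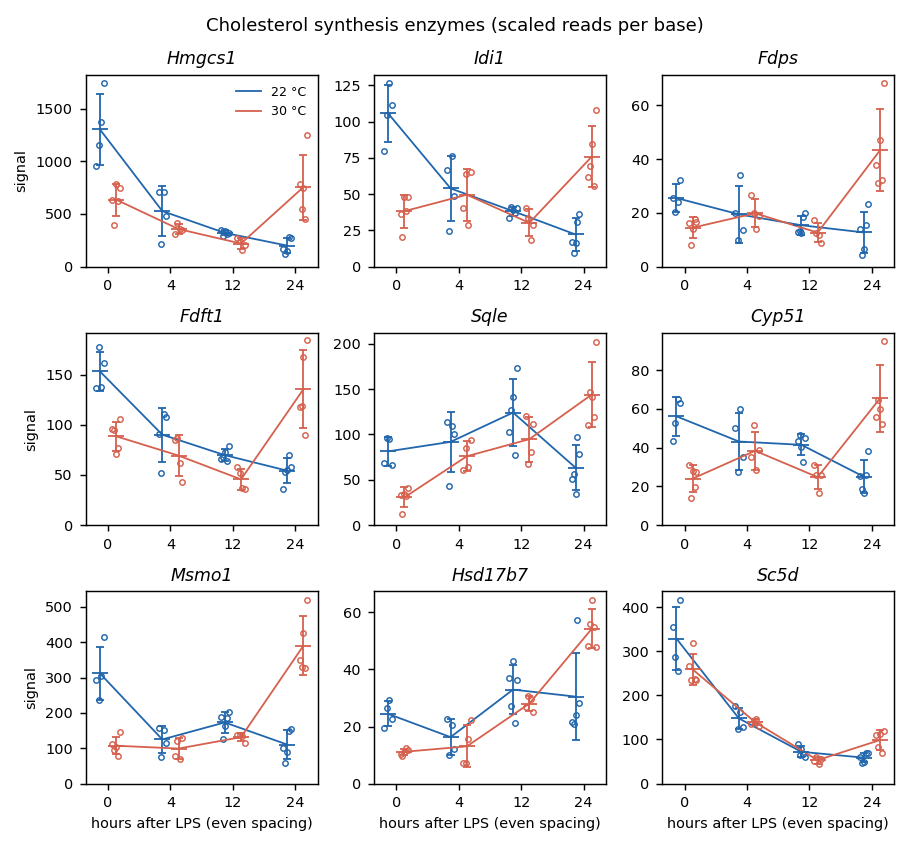
Signal (scaled reads per base, linear axes from 0) of 9 synthesis enzymes by time after LPS (evenly spaced) at 22 °C (blue) and 30 °C (red), with open points for samples, a dash for the mean and bars for the SD (n = 4 or 5). The red means of Hmgcs1, Idi1, Fdps, Fdft1, Cyp51 and Msmo1 start below the blue at 0 h and end above them at 24 h.

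Among the squalene and sterol ring enzymes, of 11 tested, 3 were lower at 30 °C at 0 h (all genes: 0.414%), 9 were higher at 24 h (9.93%), and 8 had fallen at 22 °C by 24 h (18%). The leading case was Msmo1, the sterol C4-methyl oxidase. Its signal before LPS was 236, 293, 305 and 414 at 22 °C and 78.4, 95.6, 104, 112 and 146 at 30 °C. Those groups did not overlap (-1.53 ± 0.25, adjusted p = 0.00053). At 24 h it was 57.5, 88.9, 101, 149.9 and 154 at 22 °C and 327, 330.0, 349, 425 and 520.5 at 30 °C, again without overlap (1.88 ± 0.23, adjusted p = 4.5e-07). The 24 h samples at 30 °C thus reached the range that the 22 °C samples had before LPS. At 30 °C Msmo1 passed no fall: its changes since 0 h were -0.13 ± 0.25 (adjusted p = 0.72) at 4 h and 1.86 ± 0.23 (adjusted p = 9.7e-08) at 24 h. Its change over 24 h differed between temperatures by 3.41 ± 0.34 (adjusted p = 1.0e-07), the highest of the 28 genes.

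Cyp51, the lanosterol demethylase, was lower at 30 °C at 0 h (-1.23 ± 0.26, adjusted p = 0.010), with signals of 43.5, 52.8, 63.04 and 65.2 at 22 °C and 13.8, 19.5, 27.3, 28.1 and 31.2 at 30 °C, and the call was lost without 22 °C replicate 3 or 4. At 24 h its signal was 16.8, 18.8, 25.1, 25.6 and 38.5 at 22 °C and 51.96, 55.7, 59.99, 64.5 and 95.03 at 30 °C. That is a reversal without overlap at either time (1.38 ± 0.24, adjusted p = 9.0e-05). Fdft1, squalene synthase, had a 24 h signal of 36.1, 52.5, 54.8, 57.9 and 69.9 at 22 °C and 89.8, 118, 119, 167 and 184 at 30 °C. The Fdft1 groups did not overlap (1.29 ± 0.22, adjusted p = 4.9e-05), and before LPS the difference was -0.79 ± 0.23 (adjusted p = 0.13), which did not pass. Lss, which folds squalene epoxide into the ring, had a 24 h signal of 5.22, 6.88, 9.102, 17.2 and 23.1 at 22 °C and 28.8, 29.3, 31.1, 35.2 and 61.5 at 30 °C, without overlap (1.65 ± 0.36, adjusted p = 0.0011).

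Sqle and Hsd17b7 followed another course. Both passed a rise at 30 °C by 12 h, which no other tested enzyme did, and neither passed a fall at 22 °C by 24 h. Ggps1 and Tm7sf2 passed no fall at 22 °C by 24 h either. Squalene epoxidase, Sqle, had a signal at 0 h of 66.1, 68.1, 95.02 and 95.97 at 22 °C and 11.7, 32.3, 32.7, 34.8 and 41.1 at 30 °C. The 30 °C samples all lay below (-1.47 ± 0.31, adjusted p = 0.014), a call lost without 22 °C replicate 2 or 3 or 30 °C replicate 2. At 30 °C Sqle then rose by 1.37 ± 0.31 (adjusted p = 0.00080) at 4 h, 1.67 ± 0.31 (adjusted p = 5.3e-05) at 12 h and 2.28 ± 0.30 (adjusted p = 2.1e-07) at 24 h. At 22 °C its change over 24 h did not pass (-0.42 ± 0.31, adjusted p = 0.31). From 12 to 24 h at 22 °C Sqle passed as lower (log2 difference -0.996), a call kept in 13 of 20 alternatives. The 24 h signal was 33.9, 51.3, 56.2, 78.4 and 96.8 at 22 °C and 110.5, 119.7, 141, 147 and 202 at 30 °C, so that every 30 °C sample was above (1.23 ± 0.30, adjusted p = 0.0031). Hsd17b7, a sterol 3-keto reductase, had a signal of 9.83, 10.5, 11.1, 11.7 and 12.5 at 30 °C before LPS and of 47.8, 48.2, 55.1, 55.96 and 64.4 at 24 h. It rose there by 2.18 ± 0.27 (adjusted p = 7.6e-08), against 0.22 ± 0.29 (adjusted p = 0.59) at 22 °C, where the 24 h signal was 21.04, 21.5, 23.99, 28.4 and 57.5. The 24 h groups overlap because 1 sample at 22 °C reached 57.5, and the temperature difference (0.91 ± 0.27, adjusted p = 0.016) was at adjusted p = 0.053 without 22 °C 24 h replicate 2.

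Sc5d, the lathosterol desaturase near the end of the pathway, fell at both temperatures and stayed below its 0 h level. Its signal was 255, 288, 356 and 417 at 22 °C and 235, 235, 238, 267 and 319 at 30 °C before LPS. At 24 h it was 46.1, 48.8, 60.3, 69.2 and 69.2 at 22 °C and 69.5, 81.9, 111, 112 and 119 at 30 °C. Neither 24 h group overlapped its 0 h group, with falls of 2.46 ± 0.18 (adjusted p = 3.1e-13) and 1.40 ± 0.17 (adjusted p = 3.2e-08), and Sc5d was higher at 30 °C at 24 h (0.73 ± 0.17, adjusted p = 0.0018). Dhcr7, which reduces the last ring double bond on one branch, had a 24 h signal of 2.804, 3.54, 3.61, 4.88 and 7.54 at 22 °C and 7.77, 8.27, 9.22, 10.6 and 16.4 at 30 °C, without overlap (1.08 ± 0.30, adjusted p = 0.0098). The Dhcr7 ranges are parted only by 7.54 and 7.77, and the lower values at 22 °C lie near the estimated level of 3 reads (up to about 4.06 there). Nsdhl, which works beside Msmo1 in removing the C4 methyl groups, had a 12 h signal of 44.2, 46.8, 56.02, 56.6 and 62.1 at 22 °C and 10.5, 17.4, 24.3 and 36.4 at 30 °C. It was lower at 30 °C then, without overlap (-1.34 ± 0.30, adjusted p = 0.0050). By 24 h Nsdhl was higher at 30 °C (0.88 ± 0.28, adjusted p = 0.024), with signals of 24.2, 26.1, 32.9, 33.5 and 60.1 at 22 °C and 29.5, 69.3, 69.5, 70.4 and 94.6 at 30 °C that overlap. That call ended without 22 °C replicate 1 or 4 or 30 °C replicate 1, 3 or 5 (adjusted p up to 0.085). Ebp, the sterol isomerase, was lower at 30 °C at 12 h (-0.64 ± 0.19, adjusted p = 0.049), a call that 12 of 19 alternatives ended, among them leaving out 22 °C replicate 1, 2, 3 or 4 or 30 °C replicate 2, 3 or 4. Its 12 h signal was 78.1, 80.8, 95.5, 102 and 115 at 22 °C and 44.2, 52.2, 59.5 and 90.99 at 30 °C. Tm7sf2, a sterol C14 reductase, passed in none of the temperature comparisons, and at 24 h its difference was -0.48 ± 0.24 (adjusted p = 0.18).

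**Figure D3:**
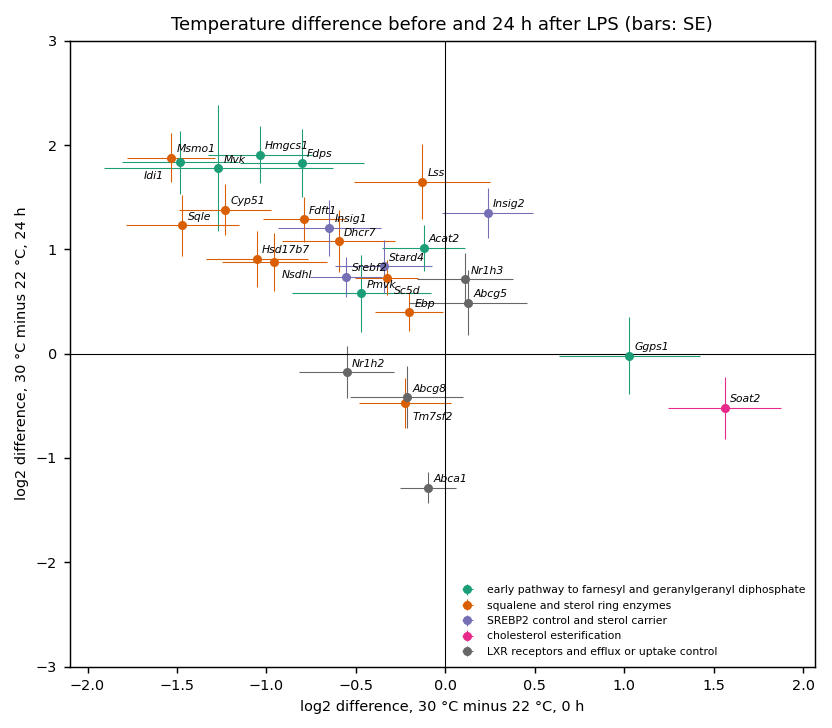
Log2 difference between 30 °C and 22 °C before LPS (horizontal) and 24 h after LPS (vertical) for the 28 tested genes, coloured by role, with bars for the SE of each difference. Of the 18 synthesis enzymes 16 lie at the upper left, below 0 at 0 h and above 0 at 24 h, while Soat2 lies at the lower right and Abca1 at the bottom.

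Across the 18 tested enzymes, 17 had a difference below 0 at 0 h, of which only 4 passed (all genes: 0.414% lower). At 24 h 16 had a difference above 0, of which 14 passed (all genes: 9.93% higher). The median difference over all genes was 0.01 at 0 h and -0.03 at 24 h. Expressed as the mean log2 level of the 18 enzymes relative to the 22 °C samples before LPS, the 5 samples at 22 °C at 24 h ran from -1.70 to -0.84 and the 5 at 30 °C from -0.58 to 0.27. At 12 h the order was the other way round, with -0.97 to -0.68 at 22 °C and -1.41 to -1.03 at 30 °C. At 0 h the 30 °C samples ran from -1.02 to -0.51. The ranges of the temperatures do not overlap at 0, 12 or 24 h. At 12 h, however, they are parted only by -0.97 and -1.03. There 2 of the 18 enzymes passed, both lower at 30 °C (all genes: 3.29%), and no difference of changes passed. Upper-quartile rescaling moved the median of all genes in the 12 h comparison by 0.088, and the enzyme mean was not recomputed with it. At 24 h the 30 °C samples ran from within their 0 h range to well above it.

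Among the SREBP2 control genes, the 4 tested, Insig1, Insig2, Srebf2 and the sterol carrier Stard4, were all higher at 30 °C at 24 h (all genes: 9.93%). Scap was not tested. Insig1, which retains SREBP2 in the endoplasmic reticulum and is itself an SREBP2 target, had a signal before LPS of 989, 1147, 1148 and 1769 at 22 °C and 671, 773, 782, 822 and 899 at 30 °C. At 24 h it was 106, 119, 120.5, 144 and 293 at 22 °C and 228, 317, 383, 386 and 397 at 30 °C. It fell steeply at both temperatures by 24 h (-3.08 ± 0.29, adjusted p = 1.7e-10 at 22 °C and -1.23 ± 0.27, adjusted p = 0.00067 at 30 °C), with no overlap between 0 h and 24 h. At 30 °C Insig1 had changed by -2.74 by 12 h and then rose by 1.51 from 12 to 24 h, and both changes passed. At 22 °C no rise from 12 to 24 h passed. The 24 h groups overlap because 1 sample at 22 °C reached 293, and the temperature difference was 1.21 ± 0.27 (adjusted p = 0.0017).

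Insig2, the second retention protein, which is not known as an SREBP2 target, ran a different course. Its signal fell from 61.9, 88.7, 97.1 and 112 at 0 h to 15.2, 20.6, 22.5 and 35.1 at 4 h at 22 °C. At 30 °C it fell from 89.5, 91.3, 96.8, 110.5 and 137 to 23.7, 26.2, 28.7 and 34.1. Neither pair overlaps, with changes of -1.93 ± 0.27 (adjusted p = 6.5e-07) and -1.86 ± 0.26 (adjusted p = 4.5e-07). At 12 h the signal was 15.8, 18.9, 19.3, 35.1 and 38.4 at 22 °C and 53.5, 55.8, 57.8 and 62.3 at 30 °C, and at 24 h 61.4, 80.6, 90.5, 102 and 131 and 189, 189.9, 201, 235 and 395. Insig2 was thus higher at 30 °C without overlap at 12 h (1.22 ± 0.26, adjusted p = 0.0035) and at 24 h (1.35 ± 0.24, adjusted p = 0.00012). At 24 h it was back near its 0 h level at 22 °C (0.04 ± 0.26, adjusted p = 0.93) and above it at 30 °C (1.15 ± 0.24, adjusted p = 0.00034).

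Srebf2 had a 24 h signal of 28.3, 40.6, 40.7, 48.95 and 55.5 at 22 °C and 53.6, 56.8, 80.5, 80.6 and 86.97 at 30 °C. These overlap in range, and the difference passed (0.74 ± 0.19, adjusted p = 0.0059). At 30 °C Srebf2 stood above its 0 h level (0.67 ± 0.19, adjusted p = 0.0075), and at 22 °C below (-0.62 ± 0.20, adjusted p = 0.015; 0.062 without 22 °C 0 h replicate 4 or 24 h replicate 2). Stard4, a soluble sterol carrier, had a 24 h signal of 8.25, 9.54, 10.1, 10.3 and 12.6 at 22 °C and 14.8, 16.8, 18.5, 19.97 and 25.4 at 30 °C. The Stard4 groups did not overlap (0.84 ± 0.26, adjusted p = 0.019), but the adjusted p was 0.064 without 30 °C 24 h replicate 5.

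Soat2, which esterifies cholesterol in hepatocytes for storage and lipoprotein secretion, was the gene that passed as higher at 30 °C before LPS. Its signal at 0 h was 6.39, 7.39, 10.8 and 14.3 at 22 °C and 23.3, 28.7, 30.8, 31.98 and 33.2 at 30 °C. All 5 samples at 30 °C were above the 4 at 22 °C (1.56 ± 0.31, adjusted p = 0.0084). At 22 °C Soat2 rose after LPS, by 1.17 ± 0.33 (adjusted p = 0.0067) at 4 h and 1.36 ± 0.31 (adjusted p = 0.00080) at 24 h, when its signal was 14.8, 19.9, 25.1, 35.3 and 39.9. At 30 °C it fell at 4 h (-0.82 ± 0.31, adjusted p = 0.043), a call lost on leaving out 0 h replicate 1, 2, 3 or 4 or 4 h replicate 1 or 2, and its 24 h signal was 9.51, 14.2, 19.4, 22.05 and 27.4. The 24 h groups overlap and the temperature difference did not pass (-0.52 ± 0.30, adjusted p = 0.24). The change over 24 h differed between temperatures by -2.08 ± 0.43 (adjusted p = 0.0020).

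In the LXR and efflux group, Abca1 was the gene that rose. Its signal before LPS was 302, 331, 379 and 403 at 22 °C and 296, 296, 306, 367 and 388 at 30 °C. At 4 h it was 1589, 1765, 1799 and 1977 at 22 °C and 1429, 1615, 1630 and 1856 at 30 °C. The rise at 4 h was 5.04-fold at 22 °C and 4.94-fold at 30 °C (log2 2.33 ± 0.17, adjusted p = 2.0e-13 and 2.30 ± 0.16, adjusted p = 6.5e-14), and at 4 h the temperatures overlapped. At 24 h the Abca1 signal was 914, 1331, 1377, 1728 and 2037 at 22 °C and 489, 496, 586, 682 and 703 at 30 °C. The 22 °C samples had kept the rise and the 30 °C samples had lost most of it, with no overlap (-1.29 ± 0.15, adjusted p = 1.5e-07). From 12 to 24 h Abca1 fell by 1.03 ± 0.16 (adjusted p = 9.5e-06) at 30 °C, against a change of 0.03 ± 0.15 (adjusted p = 0.95) at 22 °C, and the change over 24 h differed by -1.19 ± 0.22 (adjusted p = 0.00050).

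**Figure D4:**
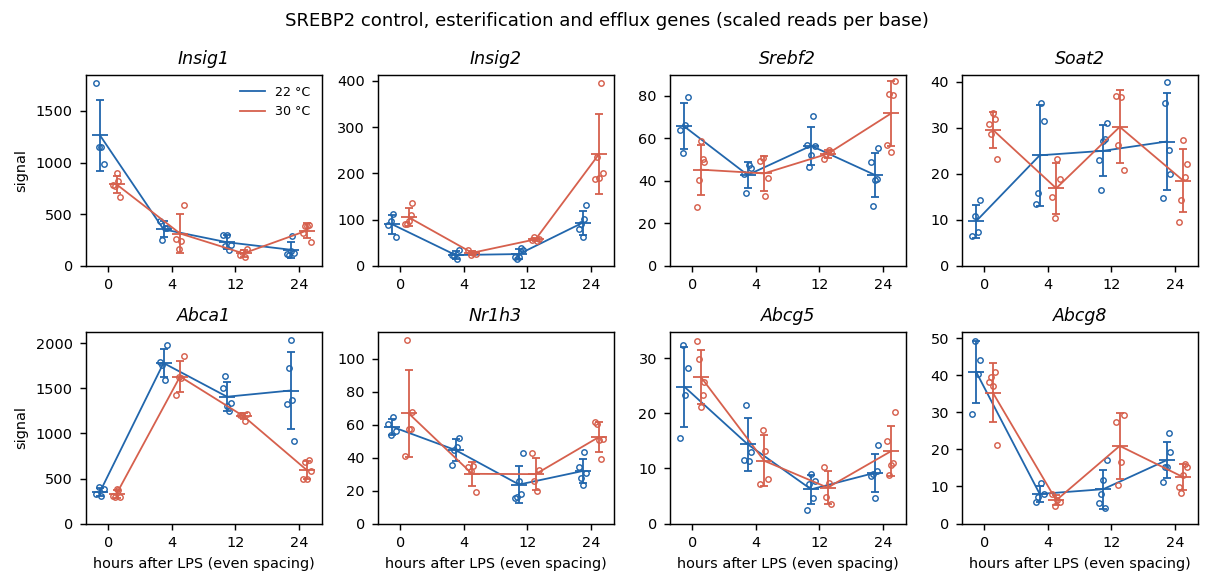
Signal (scaled reads per base, linear axes from 0) of 8 genes of SREBP2 control, esterification and efflux by time after LPS (evenly spaced) at 22 °C (blue) and 30 °C (red), with open points for samples, a dash for the mean and bars for the SD (n = 4 or 5). Abca1 is high at both temperatures at 4 h and lower at 30 °C at 24 h, while Insig2 dips at 4 h and ends higher at 30 °C.

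Nr1h3, LXR alpha, had a 24 h signal of 23.5, 27.9, 30.6, 34.1 and 43.5 at 22 °C and 39.1, 50.6, 51.2, 60.7 and 61.5 at 30 °C. The groups overlap, the difference was 0.72 ± 0.25 (adjusted p = 0.043), and it lost its call without any 1 of the 24 h libraries other than replicate 4 at either temperature (adjusted p up to 0.12). Nr1h2, LXR beta, passed in none of the comparisons of temperature or with 0 h, and its 24 h difference was -0.18 ± 0.25 (adjusted p = 0.68). Abcg5 and Abcg8, the partners of the bile exporter, both fell and were below their 0 h levels at 24 h. Abcg8 had a signal before LPS of 29.6, 40.4, 44.1 and 49.4 at 22 °C and 21.2, 37.2, 38.1, 39.5 and 40.9 at 30 °C. At 4 h it was 5.73, 7.24, 8.02 and 10.9 at 22 °C and 4.82, 5.85, 6.39 and 8.07 at 30 °C. No 4 h sample reached a 0 h sample of its temperature (-2.23 ± 0.33, adjusted p = 2.2e-06 and -2.30 ± 0.32, adjusted p = 4.2e-07). At 12 h Abcg8 was higher at 30 °C (1.14 ± 0.32, adjusted p = 0.031), with signals of 4.17, 5.46, 7.91, 11.7 and 17.1 at 22 °C and 10.5, 16.5, 27.5 and 29.3 at 30 °C that overlap and a call that ended without 22 °C replicate 1, 2 or 4 or 30 °C replicate 1 or 4. Abcg5 had a signal before LPS of 15.5, 23.3, 28.2 and 32.3 at 22 °C and 21.2, 23.2, 25.6, 29.9 and 33.2 at 30 °C. At 12 h it was 2.504, 4.71, 7.25, 7.63 and 8.93 at 22 °C and 3.51, 4.89, 7.36 and 10.3 at 30 °C, below every 0 h sample at both temperatures (-1.89 ± 0.33, adjusted p = 2.1e-05 and -1.95 ± 0.33, adjusted p = 1.2e-05). At 24 h neither transporter passed between temperatures (95% intervals of the difference -0.12 to 1.10 for Abcg5 and -1.003 to 0.17 for Abcg8).

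The 5 untested genes had means under 5 over all libraries, although Mvd, Abcg1 and Mylip exceeded 5 in some of them. Mvd, mevalonate diphosphate decarboxylase, had signals of 6.503, 7.56, 8.699 and 10.2 at 22 °C before LPS and 3.69, 4.902, 7.41, 8.74 and 9.21 at 30 °C at 24 h, and of 0 to 7.45 at 12 h at 22 °C. Scap, the escort of SREBP2, stayed between 0.499 and 3.31 over all 36 libraries, Soat1, the cholesterol-esterifying enzyme of macrophages and other cells, between 0 and 3.49, Abcg1, an exporter to high-density lipoprotein, between 0 and 13.9, and Mylip, which marks a lipoprotein receptor for destruction, between 0 and 13.1. No difference was read from these genes.

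Other genes of the same biology did not move as a block. Of 12 further SREBP targets tested, which include fatty acid genes driven mainly by SREBP1, 3 were higher and 2 lower at 30 °C at 24 h (all genes: 9.93% higher, 8.71% lower), with a median of 0.37. Mmab, a vitamin B12 enzyme gene next to Mvk (1.57 ± 0.36, adjusted p = 0.0021), Elovl6, a fatty acid elongase (1.20 ± 0.28, adjusted p = 0.0022), and Fads1, a desaturase (0.88 ± 0.19, adjusted p = 0.00092), were higher. Scd1, the stearoyl-CoA desaturase (-2.36 ± 0.34, adjusted p = 6.1e-06), and Fasn, fatty acid synthase (-1.25 ± 0.40, adjusted p = 0.027), were lower. At 24 h Scd1 had fallen by 4.69 ± 0.34 (adjusted p = 5.2e-13) at 30 °C and by 1.26 ± 0.36 (adjusted p = 0.0062) at 22 °C, the reverse of the order among the synthesis enzymes.

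The 6 tested further LXR targets all fell by 24 h at both temperatures (all genes: 18% fell at 22 °C and 14.4% at 30 °C), with medians of -1.62 at 22 °C and -1.68 at 30 °C, and none passed between temperatures at 24 h in limma. Srebf1, the SREBP1 gene, changed by -1.97 ± 0.31 (adjusted p = 3.7e-06) at 22 °C and -2.62 ± 0.29 (adjusted p = 8.9e-09) at 30 °C. Apoe, an apolipoprotein, changed by -1.06 ± 0.15 (adjusted p = 9.1e-07) and -1.14 ± 0.14 (adjusted p = 1.2e-07). Abca1 therefore moved opposite to these 6 genes. Among 16 genes of lipoprotein uptake and sterol transport, 3 were higher and none was lower at 30 °C at 24 h (all genes: 9.93% higher, 8.71% lower): Msr1, a macrophage scavenger receptor (2.07 ± 0.33, adjusted p = 3.0e-05), Lipa, the lysosomal lipase (1.00 ± 0.24, adjusted p = 0.0026), and Stard5, a sterol carrier (0.64 ± 0.22, adjusted p = 0.040). Of 9 tested genes of SREBP processing and sterol-sensed degradation, 1 was higher (Aup1, 0.88 ± 0.25, adjusted p = 0.013) and 2 were lower (Ubxn8, -0.65 ± 0.17, adjusted p = 0.0080, and Nploc4, -0.83 ± 0.29, adjusted p = 0.045). In the isoprenoid branch, which uses the same precursors for ubiquinone, dolichol and protein anchors, 1 of 12 tested genes was higher (Rabggta, 1.04 ± 0.32, adjusted p = 0.023) and 1 lower (Fnta, -0.60 ± 0.21, adjusted p = 0.040). For the isoprenoid list and the SREBP processing list these counts are set beside 9.93% higher and 8.71% lower among all genes, and the isoprenoid counts are near those shares.

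Some markers of liver cell types passed between the temperatures at 24 h, where 9.93% of all genes were higher at 30 °C. Of 10 tested Kupffer cell and macrophage markers 1 was higher at 30 °C (C1qc), of 5 neutrophil and monocyte markers 1 (Lyz2), of 5 sinusoidal endothelial markers 2 (Kdr and Clec4g), of 5 stellate cell markers 2 (Col3a1 and Lrat), and of 8 hepatocyte markers 3 (Apob, Serpina1a and Cps1), and none was lower. The summed signal of the 11 Kupffer cell and macrophage markers ran from 54.5 to 167 at 22 °C and from 132 to 170.0 at 30 °C, and that of the 9 neutrophil and monocyte markers from 141 to 309 and from 264 to 421. For the 6 endothelial markers it ran from 75.3 to 165 at 22 °C, where Clec4g was at 0 in every sample, and from 73.9 to 175 at 30 °C. For the 6 stellate cell markers the ranges were 432 to 542 and 446 to 664, for the 4 cholangiocyte markers, of which the 1 tested did not pass, 28.2 to 56.2 and 34.6 to 58.3, and for the 8 hepatocyte markers 12749 to 18118 and 12749 to 18458. Their part in the differences of the cholesterol genes was not tested.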

How the data were processed

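RNA was extracted from frozen liver and 3′-end libraries were made by a CEL-Seq2 method adapted to bulk RNA, per the labels' protocols. The deposited signal used here is the value that the authors' table names scaled reads per base. The submitters' processing notes name Trimmomatic, kallisto and sleuth. No source used here gives the versions, the genome build, the scaling between libraries or the handling of molecular identifiers. The second deposited signal, named tpm, does not sum to a fixed total and served as an alternative. Depth was estimated as the sum of values divided by the commonest smallest step, although most values are not whole numbers of steps. The floors of 3 reads are rough and cover counting error only.

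Genes were matched by Ensembl identifier to symbols of the GENCODE mouse annotation (34406 of 34829). The signal is not a count, so log2(signal + 1) was fitted with limma 3.58.1 in R 4.3.3 (1 mean per group, all 36 libraries, trended empirical Bayes, two-sided) for the 8702 genes with a mean of at least 5, with Benjamini-Hochberg adjustment in each of 17 contrasts. This scale understates changes of low genes. The steps were tested on simulated data. Alternatives were other pseudocounts, filters, scalings and weights, the second value, a replicate block, the compared groups alone, and each library left out. Named by rule were all 33 members, with values by sample for those that passed in a temperature contrast and the 3 of smallest p per role, and up to 4 genes from each related list. The members and lists were chosen with earlier results of these data known. The samples of a group in the labels share numbers with other groups, but the numbers in the titles did not pair samples. Some genes of this pathway are not analysed here.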

Additional observations from a re-analysis of the deposited data

Results flagged for a closer look

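For 20 of the 28 tested genes the change from 0 to 24 h differed between the temperatures by the test of that difference (limma, Benjamini-Hochberg over all genes tested). Of all genes tested, the change passed as higher at 30 °C in 5.07% and as lower in 3.88%. It was higher at 30 °C by 3.41 for Msmo1, 3.31 for Idi1, 3.05 for Mvk, 2.95 for Hmgcs1, 2.70 for Sqle, 2.63 for Fdps, 2.61 for Cyp51, 2.08 for Fdft1, 1.97 for Hsd17b7, 1.85 for Insig1, 1.84 for Nsdhl, 1.78 for Lss, 1.67 for Dhcr7, 1.29 for Srebf2, 1.18 for Stard4, 1.14 for Acat2, 1.11 for Insig2 and 1.06 for Sc5d, on the log2 scale. It was lower at 30 °C for Soat2 (-2.08) and Abca1 (-1.19). Of these, Acat2, Mvk, Lss, Insig2 and Stard4 each lost the call without at least 2 single libraries, with adjusted p of 0.069, 0.066, 0.067, 0.091 and 0.082 at most over all alternatives, and the other 15 kept it in every alternative.

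A single sample stood far from its group in 12 of 224 groups of values (5.36%), in 10 libraries, where chance gives about 1 in 20. Above their groups were Pmvk at 36.4 in 22 °C 4 h replicate 1 and at 23.7 in 22 °C 24 h replicate 5, Lss at 26.8 in 22 °C 12 h replicate 5 and at 61.5 in 30 °C 24 h replicate 5, and Nsdhl at 60.1 in 22 °C 24 h replicate 5. So were Hsd17b7 at 57.5 and Insig1 at 293 in 22 °C 24 h replicate 4, Insig2 at 395 in 30 °C 24 h replicate 4, and Abcg5 at 21.6 in 22 °C 4 h replicate 2. Below their groups were Mvk at 1.47 in 30 °C 4 h replicate 2, Msmo1 at 115 in 30 °C 12 h replicate 4 and Abcg8 at 21.2 in 30 °C 0 h replicate 5. No library had more than 2 of these values.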

How the results depend on the processing

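Of 476 differences tested for the 28 genes, 183 passed. Of these, 137 also passed in every alternative run, 46 were lost in at least 1, and none changed sign. Of the 40 calls at 24 h between temperatures and in the difference of changes, 30 passed in every alternative. The count at 0 h between temperatures, 5, was 1 with the compared groups alone. At 12 h the count of 4 was 2 with no filter on low values or the groups alone and 7 with array weights. The count from 12 to 24 h at 22 °C, 5, was 1 with no filter or the groups alone and 3 after upper-quartile rescaling, which moved the median of all genes by up to 0.24 (12 against 4 h at 30 °C). The causes were not tested. With single libraries left out, the counts between temperatures ran from 2 to 5 at 0 h, 2 to 4 at 12 h and 16 to 19 at 24 h. They ran from 9 to 14 for 4 h at 22 °C, 1 to 6 for 12 to 24 h at 22 °C, and 16 to 20 for the difference of changes at 24 h.

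Replicate numbers, taken from the sample titles, did not pair the samples. The 118 pairs of libraries with the same number correlated between -0.125 and 0.110 in their deviations from the group means (median -0.00057), and 10 of 36 libraries correlated best with one of their own number. With the replicate number as a block, the count at 24 h between temperatures was 19, that at 0 h was 6, and 1 gene (Msmo1) passed in the difference of changes at 12 h, where none did without the block. Scap and Soat1 stayed under a signal of 5 in every library, and Mvd, Abcg1 and Mylip exceeded it in some libraries but not in the mean.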
